A study of Saccharomyces cerevisiae with 4 samples.

Results

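The 34 genes described here encode the yeast proteasome and its dedicated transcription factor, and they were taken by systematic name from the 7127 features counted in each library. They comprise 14 genes of the proteolytic core (PRE1 to PRE10, PUP1 to PUP3 and SCL1), 9 genes of the regulatory base (RPT1 to RPT6, RPN1, RPN2 and RPN13) and 9 genes of the lid (RPN3, RPN5 to RPN9, RPN11, RPN12 and SEM1). RPN10, whose product sits between base and lid, and RPN4, which encodes the transcription factor, were kept apart. Transcripts were compared between 2 libraries of Saccharomyces cerevisiae BY4741 and 2 libraries of a derivative carrying YJR066w::kanMX4, that is, with TOR1 replaced by a drug-resistance cassette. Both strains are haploid MATa cells of the S288C background with the mutations his3-1, leu2-0, met15-0 and ura3-0, and both were grown to exponential phase in minimal medium with dextrose, ammonium sulfate and supplements. The titles of all libraries carry a time of 4 h. No label states whether replicate libraries stem from separate cultures, nor how many deletion clones were used, so p-values measure the spread among 4 libraries and that spread may be technical.

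The proteasome degrades proteins that carry ubiquitin chains. Its core is a barrel of stacked rings, with alpha subunits in the outer rings that gate the entrance and beta subunits in the inner rings, some of which hold the proteolytic sites. The base unfolds substrates with a ring of ATPases, the lid removes ubiquitin, and Rpn4 activates the genes of all these subunits through a promoter element known as PACE, the proteasome-associated control element. Rpn4 is itself a short-lived substrate of the proteasome. Tor1 is a Target of Rapamycin kinase of TOR complex 1, which couples nutrient supply to growth.

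The libraries held 8060480 to 14446057 counts, and 6541 to 6730 features had at least 1 read. The deleted gene matched the labels, with TOR1 counts of 635 and 357 for wild type against 0 and 1 for the deletion. The MATa genes STE2, MFA1, MFA2 and BAR1 had mean levels of 471 to 2849 CPM (read counts scaled to a common library total, with TMM factors) in either strain, while the MATalpha genes STE3, MF(ALPHA)1 and MF(ALPHA)2 had means of at most 9.69 CPM. LEU2 had no count in any library, MET17 had 3, 3, 0 and 0, and URA3 had 1, 0, 0 and 0. None of the 34 proteasome genes overlapped another annotated gene or had a near-identical copy.

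Nearly the whole proteasome was higher in the tor1 deletion. Of the 34 genes, all of which passed the filter on low counts, 32 rose and 2 did not pass the test (quasi-likelihood F test of edgeR, p adjusted by Benjamini-Hochberg over all 6197 genes tested, threshold 0.05), where 26.9% of all genes tested were higher and 24.9% lower. The rise covered 13 of 14 core genes, 9 of 9 base genes, 9 of 9 lid genes and RPN10. The 34 genes were also chosen with earlier results of these data known, so the shares of all genes serve as a description. Median log2 fold changes, deletion against wild type, were 1.02 for the core, 0.92 for the base and 1.10 for the lid, against -0.02 over all genes tested. With TMM factors each was close to a doubling, and library totals or upper quartile factors, given below, made them smaller. For 33 of the 34 genes the lower deletion library still exceeded the higher wild-type library, which held for 38.6% of all genes tested. The genes that did not pass were PRE6, an alpha subunit of the core, and RPN4. CPM are relative to TMM-scaled library sizes, so changes in total mRNA per cell were not measured, and fewer cells and less RNA per cell cannot be told apart. As a plain share of all counts, the 33 genes other than RPN4 took 0.894% and 0.893% in the wild type against 1.43% and 1.51% in the deletion.

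Without wild-type library 1 the median log2 fold changes of core, base and lid were 1.04, 0.97 and 1.12. Without wild-type library 2 they were 1.11, 0.79 and 1.10. Standard errors grew, that of PRE8 from 0.17 to 0.40 in either case, since only the deletion pair was left to measure spread between replicates. The count of 32 fell in both cases. Without wild-type library 1 it was 18, where 16.7% of all genes were higher, and without wild-type library 2 it was 19, where 17.1% were. It was 33 without deletion library 1, where 36.2% of all genes were higher, and 32 without deletion library 2, where 31.8% were. With library totals in place of TMM factors it was 26 (19.0% of all genes) and with upper quartile factors 25 (17.9%), scalings that moved the median of all genes by -0.33 and -0.39. The medians of core, base and lid were 0.69, 0.59 and 0.77 with library totals, and 0.63, 0.53 and 0.70 with upper quartile factors. No member was called lower under any of the 11 alternatives.

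**Figure D1:**
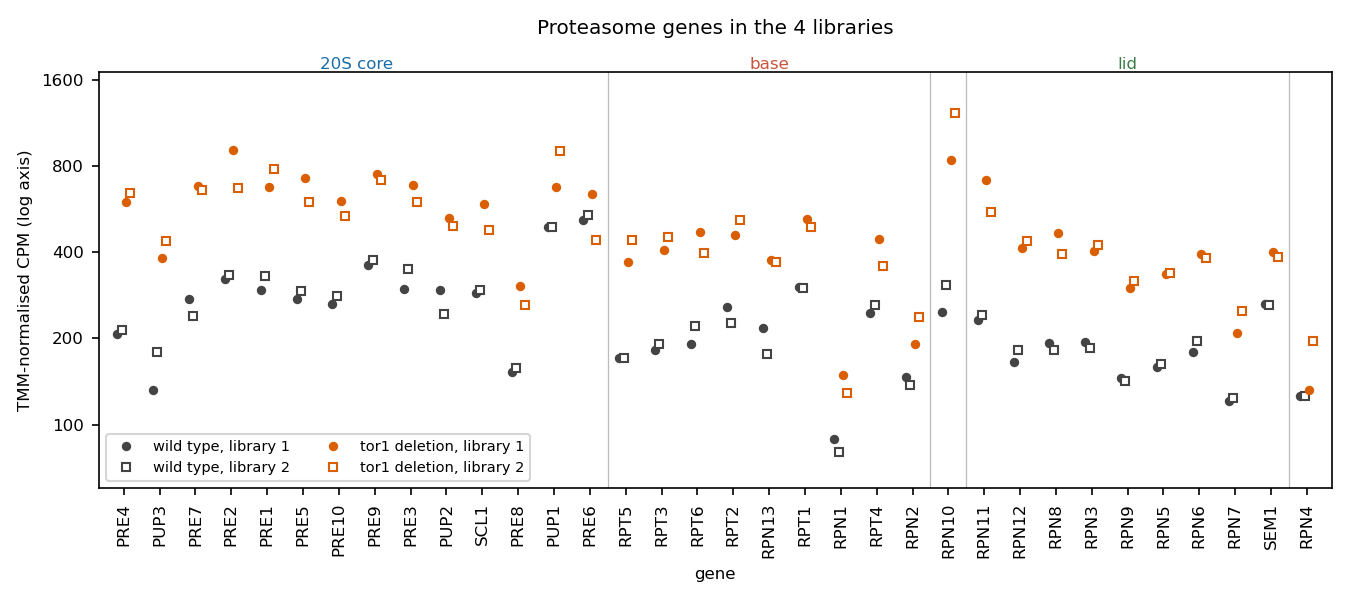
TMM-normalised CPM (log axis) of the 34 genes in each library, with genes ordered within core, base and lid by their change. Each symbol is 1 library, and the orange deletion libraries lie above the grey wild-type libraries for every gene but PRE6.

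The sequences upstream of most of these genes carry a shared element. PACE was already named above as the element of the subunit genes, so its count here is a description. PACE, spelt GGTGGCAAA, was searched on both strands from 250 bases before to 50 bases after the start codon, in sequence of the R64 assembly of S288C from RefSeq. It was found exactly at 27 of the 34 genes (12 of the core, 8 of the base and 7 of the lid) and at 72 of 6001 promoters of nuclear protein-coding genes in all, 1.20%. With 1 mismatch allowed, a form that includes the exact one, it was found at all 33 structural subunits and at 454 promoters in all, 7.57%. The 6 genes with a mismatch showed 2 forms. PRE5, PUP1 and RPN8 had the substitution G1A, and RPN10, RPN13 and SEM1 had A7G, counted from the 5′ end of the element. RPN4 was the only member without a match, its closest spelling having 3 mismatches, which is as close as 99.6% of all promoters come.

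The following stretches show the element in capitals, read so that it runs 5′ to 3′, for the strongest and weakest risers of core, base and lid, for genes of both variant forms and for PRE6. PRE6, which did not pass the test, has the element without a mismatch.
PRE4 (chrVI:249954-249992, plus strand): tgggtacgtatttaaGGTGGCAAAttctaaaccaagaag
PRE6 (chrXV:255213-255251, minus strand): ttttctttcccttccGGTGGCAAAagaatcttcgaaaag
RPT5 (chrXV:544850-544888, plus strand): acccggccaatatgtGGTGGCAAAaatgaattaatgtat
RPN2 (chrIX:220796-220834, minus strand): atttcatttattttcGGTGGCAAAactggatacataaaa
RPN11 (chrVI:153254-153292, plus strand): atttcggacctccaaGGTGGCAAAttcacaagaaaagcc
PUP1 (chrXV:631886-631924, minus strand): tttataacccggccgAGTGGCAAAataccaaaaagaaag
RPN8 (chrXV:817080-817118, minus strand): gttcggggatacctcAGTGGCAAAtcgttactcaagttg
RPN10 (chrVIII:498963-499001, minus strand): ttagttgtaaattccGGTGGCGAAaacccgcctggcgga
RPN13 (chrXII:965651-965689, minus strand): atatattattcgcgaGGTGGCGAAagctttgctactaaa
SEM1 (chrIV:1202002-1202040, plus strand): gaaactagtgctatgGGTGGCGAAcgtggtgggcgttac

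The spelling of the element did not order the changes. The 27 genes with the exact element had a median log2 fold change of 1.06 with a range of 0.03 to 1.56, and the 6 with a variant had a median of 1.06 with a range of 0.58 to 1.90. The variant A7G stood upstream of the gene with the steepest rise, RPN10, and of the gene with the smallest rise among those called, SEM1. Matches were centred 80 to 179 bases before the start codon, and genes with near-equal placement differed, since PRE4 at -107, SEM1 at -107 and PRE6 at -105 changed by 1.56, 0.58 and 0.03 on the log2 scale. Elements of other factors were counted in the same windows, with no test. AGGGG, the element of the stress factors Msn2 and Msn4, was found at 8 of 34 members and 21.6% of all promoters, and TTACTAA, that of Yap1, at 3 of 34 and 7.45%. Of the forms bound by Pdr1 and Pdr3, TCCGTGGA was found at 0 of 34 members and 0.4% of all promoters, and TCCGCGGA at 1 of 34 (RPN11, after the start codon) and 0.217%. The heat shock element cores GAANNTTC and TTCNNGAA were found at 3 and 6 of 34 members and at 11.8% and 12.9% of all promoters.

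**Figure D2:**
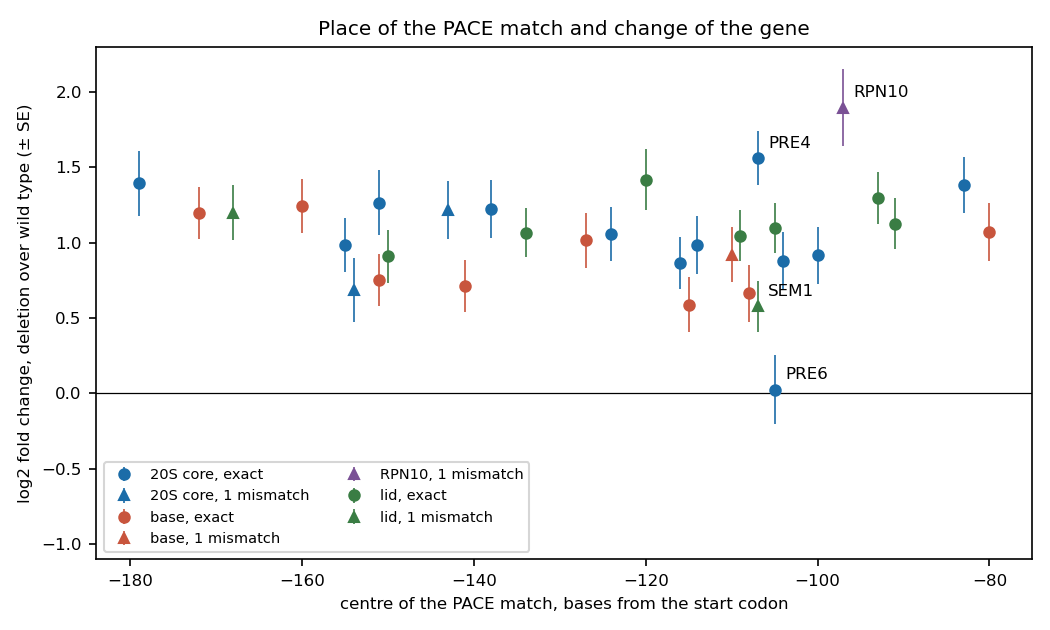
Log2 fold change of deletion over wild type (± SE) against the distance of the PACE match from the start codon in bases, for the 33 structural genes. Circles are exact matches and triangles have 1 mismatch, exact matches lying at changes of 0.03 to 1.56 and the others at 0.58 to 1.90.

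In the core, every beta subunit gene rose and 6 of 7 alpha subunit genes did. The median log2 fold change was 1.26 over the 7 beta genes and 0.92 over the 7 alpha genes, a difference that was not tested. PRE4 (YFR050C, chromosome VI, 249066 to 249866, minus strand, a single coding exon), which encodes subunit beta7, was measured at 207 and 214 CPM in the wild-type libraries and 597 and 645 CPM in the deletion libraries. It rose 2.95-fold, by 1.56 ± 0.18 (log2 fold change ± SE, n = 2 per strain, adjusted p = 0.000694), the steepest rise in the core, and the libraries of the strains lay far apart. PUP3, subunit beta3, and PRE7, subunit beta6, rose by 1.39 ± 0.21 and 1.38 ± 0.19, and PRE1, subunit beta4, by 1.23 ± 0.19.

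The proteolytic subunits rose to different extents. PRE2, which encodes beta5 with the chymotrypsin-like site, was measured at 323 and 333 CPM in the wild type against 906 and 671 CPM in the deletion, a rise of 1.26 ± 0.22 (adjusted p = 0.00313). PRE3, beta1 with the caspase-like site, was at 298 and 348 CPM and then at 684 and 597 CPM, a rise of 0.99 ± 0.19 (adjusted p = 0.00552). PUP1, beta2 with the trypsin-like site, started from a higher level of 488 and 491 CPM and reached 676 and 899 CPM, the smallest rise among core genes that passed, 0.69 ± 0.21 (adjusted p = 0.0316). The deletion libraries did not reach down to the wild-type libraries for any of these genes, and PUP1 had the narrowest gap in CPM. PUP1 lost its call on leaving out either wild-type library and under both other scalings (library totals, upper quartile), and PRE3 lost it without wild-type library 1.

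Of the alpha subunit genes, PRE5 (alpha6) rose by 1.22 ± 0.19 and PRE10 (alpha7) by 1.06 ± 0.18. PRE9, which encodes alpha3, the core subunit that cells can live without, rose by 0.99 ± 0.18, and PUP2 (alpha5), SCL1 (alpha1) and PRE8 (alpha2) rose by 0.92 ± 0.19, 0.88 ± 0.19 and 0.87 ± 0.17. Leaving out a wild-type library ended the calls of PRE8, PRE9 and SCL1 for either library, of PRE10 for library 1 and of PUP2 for library 2, and upper quartile factors ended that of SCL1. PRE6 (YOL038W, chromosome XV, 255337 to 256101, plus strand, a single coding exon) encodes alpha4, which can take the place of alpha3 in alternative cores. It was measured at 519 and 541 CPM in the wild type against 636 and 443 CPM in the deletion, so the wild-type libraries lay between the deletion libraries. Its log2 fold change was 0.03 ± 0.23 (edgeR quasi-likelihood adjusted p = 0.931), and it became negative under library totals (-0.31), under upper quartile scaling (-0.37) and without deletion library 1 (-0.25), and was 0.27 without deletion library 2, passing in none of these. In the wild type PRE6 had the highest CPM of the 34 genes. Its promoter from 250 bases before to 50 after the start codon (chrXV:255087-255386, plus strand) is given with the PACE match, here on the opposite strand, and the start codon in capitals.
PRE6 promoter: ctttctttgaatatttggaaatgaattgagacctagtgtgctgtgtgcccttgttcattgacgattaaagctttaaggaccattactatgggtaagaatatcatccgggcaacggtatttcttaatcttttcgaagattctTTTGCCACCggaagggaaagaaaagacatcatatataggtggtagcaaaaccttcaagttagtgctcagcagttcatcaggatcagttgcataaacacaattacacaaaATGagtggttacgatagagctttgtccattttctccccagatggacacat

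**Figure D3:**
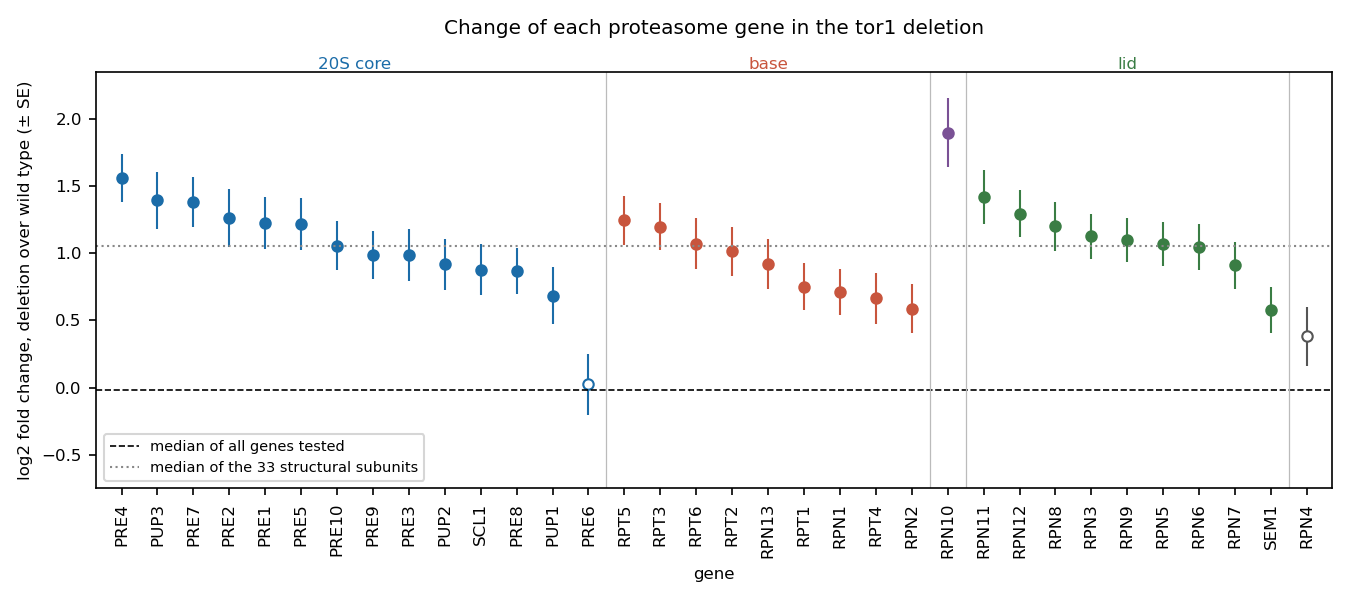
Log2 fold change of deletion over wild type (± SE, 2 libraries per strain) of the 34 genes, with filled symbols for genes that passed the test. All structural subunits but PRE6 lie between 0.58 and 1.90, above the dashed median of all genes tested.

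All genes of the base rose, with the ATPases spread almost as widely as the whole. RPT5 (YOR117W, chromosome XV, 545029 to 546333, plus strand), one of the ATPases whose tail inserts into the core to open its gate, was measured at 171 and 172 CPM in the wild type against 370 and 442 CPM in the deletion, the largest rise in the base at 1.24 ± 0.18 (adjusted p = 0.00169). RPT3 and RPT2 rose by 1.20 ± 0.17 and 1.02 ± 0.18, and RPT6 by 1.07 ± 0.19. The other ATPase genes, RPT1 and RPT4, rose less, by 0.75 ± 0.17 and 0.66 ± 0.19. The scaffold genes were at the low end. RPN2 (YIL075C, chromosome IX, 217863 to 220700, minus strand), whose product carries the ubiquitin receptor Rpn13, was at 147 and 137 CPM in the wild type against 191 and 237 CPM in the deletion, the smallest rise in the base at 0.59 ± 0.18 (adjusted p = 0.0309). RPN1, the docking platform for ubiquitin shuttles, rose by 0.71 ± 0.17, and RPN13 by 0.92 ± 0.18. Calls in the base were fewer under several settings. The 9 rises became 5 under either other scaling (library totals, upper quartile), 4 without wild-type library 1 and 3 without wild-type library 2. RPT1, RPT4, RPN1 and RPN2 lost their call in each of these, RPT6 only without wild-type library 1, and RPT2 and RPN13 only without wild-type library 2.

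RPN10 (YHR200W, chromosome VIII, 499079 to 499885, plus strand, a single coding exon) encodes a receptor for ubiquitin chains that also exists free of the proteasome. It was measured at 248 and 307 CPM in the wild type against 839 and 1228 CPM in the deletion. The rise of 3.73-fold, 1.90 ± 0.26 on the log2 scale (edgeR quasi-likelihood adjusted p = 0.00131), was the steepest of the 34 genes, although the deletion libraries differed from each other by 0.55 on the log2 scale, one of the widest such gaps among them. Without deletion library 2, the higher one, the log2 fold change was 1.60, and RPN10 was called higher under every setting tried. RPN13 and RPN1, whose products also bind ubiquitin, rose by 0.92 and 0.71 on the same scale.

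In the lid, rises were even in most genes. RPN11 (YFR004W, chromosome VI, 153393 to 154313, plus strand), which encodes the metalloprotease that cuts ubiquitin chains off substrates, was at 233 and 242 CPM in the wild type against 715 and 553 CPM in the deletion, the largest rise in the lid at 1.42 ± 0.20 (adjusted p = 0.0016). RPN8, whose product forms a dimer with Rpn11, rose by 1.20 ± 0.18. The 6 genes of the horseshoe of PCI-domain subunits had a median of 1.08, with RPN12 at 1.30 ± 0.17, RPN3 at 1.13 ± 0.17, RPN9 at 1.10 ± 0.16, RPN5 at 1.07 ± 0.16, RPN6 at 1.05 ± 0.17 and RPN7 at 0.91 ± 0.17. SEM1 (YDR363W-A, chromosome IV, 1202128 to 1202397, plus strand), which encodes a very small acidic protein that also belongs to other complexes, was at 263 and 262 CPM in the wild type against 401 and 383 CPM in the deletion. Its rise of 0.58 ± 0.17 (adjusted p = 0.0252) was the smallest in the lid, and its call ended with the replicate block, on leaving out either wild-type library and under both other scalings. Without wild-type library 1 the lid also lost the calls of RPN6 and RPN7, and without wild-type library 2 that of RPN7.

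RPN12 lies 262 bases from HXK1, a hexokinase gene that faces it on the opposite strand and had mean levels of 48.2 CPM in the wild type against 11033 CPM in the deletion. RPN12 itself was at 165 and 182 CPM in the wild type against 415 and 437 CPM in the deletion. The sources used here give no strand setting for the counting, and whether reads running on from HXK1 entered the counts of RPN12 was not tested. The log2 fold change of RPN12, 1.30, was below that of RPN11, 1.42, and above those of the other lid genes.

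RPN4 (YDL020C, chromosome IV, 415113 to 416708, minus strand, a single coding exon) was measured at 126 and 126 CPM in the wild type against 132 and 196 CPM in the deletion. Both deletion libraries were higher, but library 1 barely so. Its log2 fold change of 0.38 ± 0.22 did not pass (edgeR quasi-likelihood adjusted p = 0.179). Without deletion library 1 it was called higher at 0.65, without deletion library 2 it was at 0.08, and with upper quartile factors it was at -0.012. The level of the Rpn4 protein, which is set largely by its degradation, was not measured here. Both heat shock element cores were found in its promoter, as overlapping matches whose first bases lie at -21 and -16 from the start codon. The promoter of RPN4 (chrIV:416659-416958, minus strand), which is shown because it alone lacks PACE within 1 mismatch, is given with the start codon in capitals.
RPN4 promoter: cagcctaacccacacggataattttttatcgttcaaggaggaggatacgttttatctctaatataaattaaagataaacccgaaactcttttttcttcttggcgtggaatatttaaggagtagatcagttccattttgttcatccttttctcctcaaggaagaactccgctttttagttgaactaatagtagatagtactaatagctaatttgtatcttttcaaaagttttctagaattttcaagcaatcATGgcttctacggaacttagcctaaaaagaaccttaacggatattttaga

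Genes that act on Rpn4 moved unevenly. Of the transcription factors known to activate RPN4, YAP1, the regulator of the oxidative stress response, rose from 138 and 142 CPM to 278 and 334 CPM, by 1.13 ± 0.18 (adjusted p = 0.00232). PDR3, a drug-resistance regulator, fell by 0.53 on the log2 scale (SE 0.17, adjusted p = 0.033), a call that ended with DESeq2, with the replicate block and without either wild-type library. PDR1 and HSF1 did not pass, at 0.16 ± 0.16 and 0.21 ± 0.16. Of the genes for the ubiquitin ligase that marks Rpn4 for degradation, MUB1 rose by 1.12 ± 0.21, whereas UBR2 and RAD6 did not pass, at 0.40 ± 0.20 and 0.60 ± 0.22. Both were called higher without deletion library 1, and RAD6 also with DESeq2, without the filter on low counts and with the replicate block.

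To ask which members departed from the rest, the test was repeated with the summed counts of the 33 structural subunits as the library size. The sum took 0.894% and 0.893% of all counts in the wild type against 1.43% and 1.51% in the deletion. On this scale a change of 0 means in step with the sum, and 8.54% of all genes tested were higher than it and 67.5% lower. The p-values were adjusted over all these genes, and with most of them called the adjustment was mild for the 34 members. An adjusted p just below 0.05 here is thus close to an unadjusted one. Of the 34 genes, 29 did not depart from the sum beyond the threshold. RPN10 and PRE4 rose by more, at 0.86 ± 0.25 (adjusted p = 0.015) and 0.52 ± 0.17 (adjusted p = 0.0272) on the log2 scale relative to the sum. PRE6, RPN4 and SEM1 were lower relative to it, at -1.02 ± 0.22 (adjusted p = 0.00454), -0.66 ± 0.22 (adjusted p = 0.0292) and -0.47 ± 0.17 (adjusted p = 0.0351). PRE6 was called under all 8 alternatives of this fit, with values of -1.29 to -0.79 and adjusted p of at most 0.0249. RPN10 was called under 7, RPN4 under 6, PRE4 under 5 and SEM1 under 4. Without wild-type library 1 the number of members above the sum was 0 and below it 1, and without wild-type library 2 it was 1 in each direction. Without deletion library 1 there were 6 above and 8 below, and without deletion library 2 there were 5 in each direction.

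**Figure D4:**
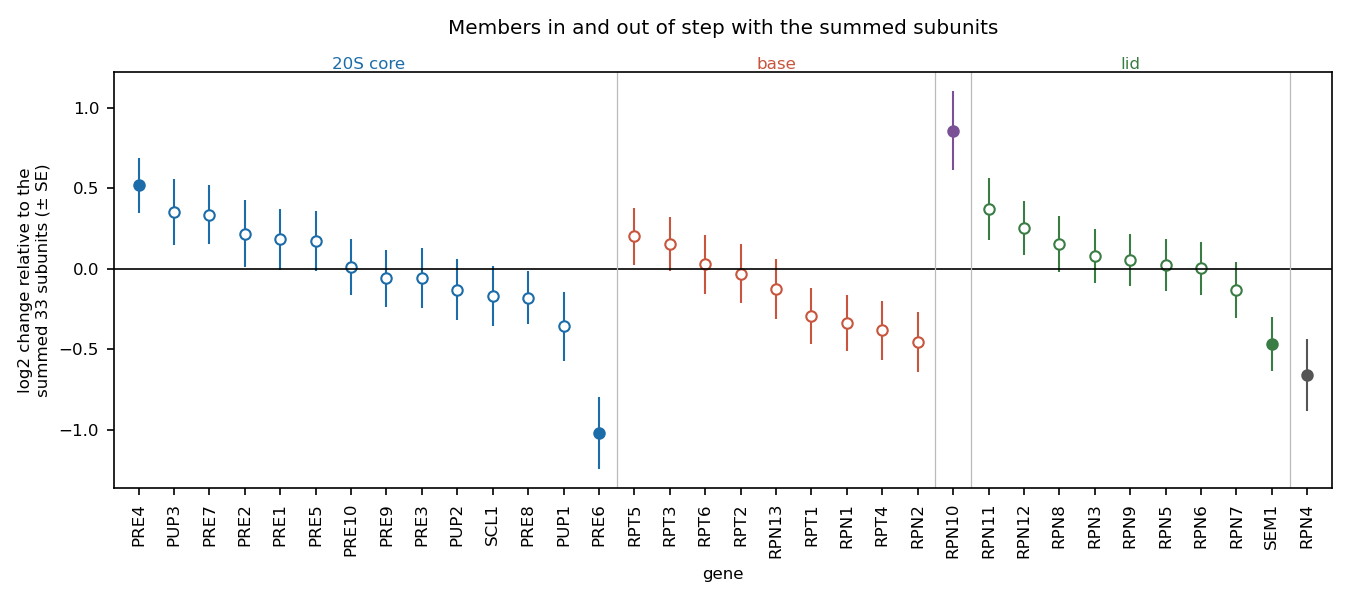
Log2 change of each gene relative to the summed counts of the 33 structural subunits (± SE, 2 libraries per strain), with filled symbols for adjusted p below 0.05. RPN10 and PRE4 lie above the line of equal change, PRE6, SEM1 and RPN4 lie below it, and the other genes do not differ from it by the test.

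Levels were also set per length of coding sequence. Core genes have 597 to 867 coding bases and base genes 471 to 2982, and differences by length and by subcomplex were not separated. As CPM per kilobase of coding sequence, core genes averaged 400 and 417 for the wild type against 841 and 796 for the deletion. Base genes averaged 175 and 166 against 330 and 327, and lid genes 246 and 249 against 495 and 469. The lid mean stood above the base mean, but the lid median was below the base median in every library. Medians were 137 and 151 against 303 and 293 for the lid, and 157 and 172 against 339 and 338 for the base. The core stood above base and lid in every library, and the proportions between them shifted little. The ratio of the core mean to the base mean was 2.29 and 2.50 for the wild type against 2.55 and 2.44 for the deletion. That of the core mean to the lid mean was 1.62 and 1.67 against 1.70 and 1.70. The smallest two-sided exact permutation p that 2 against 2 libraries allow is 0.333, so that test cannot reach the threshold for either ratio, and no other test of the ratios was run.

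Within the complex, levels per kilobase spanned 32.5-fold and 36.0-fold for the wild type against 29.6-fold and 35.1-fold for the deletion. SEM1, the shortest gene, was at the top in both strains with means of 973 and 1452 CPM per kilobase. RPN1 and RPN2, the longest genes, were at the bottom in both, with RPN1 at 28.5 and 46.7 and RPN2 at 50.1 and 75.4. The order of the 33 subunits was largely kept between the strains (Spearman's rho = 0.937 across genes that share libraries and lengths, given as a description). PRE6 and RPN10 moved furthest in it. PRE6 went from rank 2 of the 34 genes in the wild type, at 693 CPM per kilobase, to rank 12, at 705, and RPN10 went from rank 13, at 344, to rank 2, at 1281. The alpha subunit PRE8, at 206 in the wild type against 377 in the deletion, was the lowest core gene in both strains. RPN3 and RPN5, neighbours in this order in the wild type, had equal means there of 120 and 120 CPM per kilobase.

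The replicate libraries differed less from each other for proteasome genes than the strains did. The median absolute log2 difference over the 34 genes was 0.08 between the wild-type libraries and 0.20 between the deletion libraries, where all genes tested had 0.13 and 0.32. Deletion library 1 was the higher one for 19 of the genes and library 2 for 15. The widest gaps between deletion libraries were those of RPN4 (0.57) and RPN10 (0.55), both higher in library 2, and PRE6 (-0.52), higher in library 1.

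Beyond the subunits, 42 genes were examined, for proteasome assembly, proteins that bind the proteasome, substrate delivery, ubiquitin supply and control of Rpn4. The genes described above that act on Rpn4 are among them. Earlier results of these data were known when these 42 genes were chosen. Setting them against the shares of all genes is therefore a description and not a test. Of these, 25 rose, 6 fell and 11 did not pass, with a median log2 fold change of 0.81, where 26.9% of all genes were higher and 24.9% lower. Without wild-type library 1 the number of rises was 16.

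Of 5 assembly factor genes of the core, 1 rose, 2 fell and 2 did not pass. UMP1, the maturation factor that is degraded by the finished core, rose by 0.77 ± 0.18 (adjusted p = 0.0103), from 232 and 216 CPM to 355 and 408 CPM. POC4, which encodes a partner in a chaperone dimer for alpha rings, fell from 62.2 and 67.0 CPM to 23.3 and 10.9 CPM (-1.93 ± 0.34, adjusted p = 0.00339), with both deletion libraries far below both wild-type libraries, and it was called lower under every setting tried. ADD66, a chaperone of the other alpha-ring dimer, fell by 0.65 on the log2 scale (SE 0.21, adjusted p = 0.0346). Their respective partners IRC25 and PBA1 did not pass, at -0.68 ± 0.26 and 0.34 ± 0.19. The calls of UMP1 and ADD66 ended without either wild-type library, and that of UMP1 also under both other scalings. IRC25 was called lower under both other scalings, with the replicate block and without either deletion library, and PBA1 was called higher without deletion library 1.

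Assembly chaperones of the base rose or did not pass. TMA17, also called ADC17, a stress-induced chaperone that pairs ATPases, was at 124 and 134 CPM in the wild type against 666 and 734 CPM in the deletion. This 5.42-fold rise, 2.44 ± 0.19 (adjusted p = 0.00018), was the largest of the 42 genes, larger in value than that of any subunit, and was called under every setting tried. Its promoter held AGGGG at 2 places and no PACE within the window. RPN14 and NAS2, chaperones of Rpt6 and Rpt5, rose by 0.95 ± 0.16 and 0.76 ± 0.17, while HSM3 and NAS6 did not pass, at 0.44 ± 0.19 and 0.42 ± 0.19. NAS2 lost its call on leaving out either wild-type library and under both other scalings, and HSM3 and NAS6 were called higher without deletion library 1.

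Of 8 genes for proteins that bind the finished proteasome, 7 rose. SPG5, a proteasome regulator known from stationary phase, and CUE5, a ubiquitin-binding receptor of autophagy, rose by 1.37 ± 0.19 and 1.34 ± 0.17. CUZ1, a partner of Cdc48 and the proteasome, rose by 1.17 ± 0.18, and the deubiquitinase gene UBP6 by 0.99 ± 0.16. BLM10, which encodes an alternative cap of the core, rose from 78.0 and 82.1 CPM to 156 and 133 CPM, by 0.85 ± 0.17 (adjusted p = 0.00622), a call that ended with upper quartile factors and without either wild-type library. ECM29, which tethers core and regulatory particle, and FUB1 rose by 0.85 ± 0.23 and 0.52 ± 0.17, and both calls ended under both other scalings and without either wild-type library, that of FUB1 also with the replicate block. HUL5, a ligase that extends ubiquitin chains, did not pass, at -0.18 ± 0.20, and was called lower with upper quartile factors and without deletion library 2.

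Genes that bring substrates to the proteasome were higher throughout the shuttle list and in most of the Cdc48 list. All 3 shuttle receptor genes rose, DSK2 by 1.61 ± 0.20, from 619 and 622 CPM to 1932 and 1848 CPM, DDI1 by 1.28 ± 0.17 and RAD23 by 1.00 ± 0.19, where the call of RAD23 ended without wild-type library 1. Of 9 genes of the Cdc48 segregase, which extracts ubiquitinated proteins, 7 rose. OTU1, its deubiquitinase, rose by 1.94 ± 0.19, and its adaptor SHP1 and CDC48 itself by 1.40 ± 0.18 and 1.38 ± 0.20. The cofactor genes UFD1, UBX2, NPL4 and DOA1 rose by 1.04 ± 0.19, 1.00 ± 0.22, 0.84 ± 0.22 and 0.79 ± 0.21, and UFD2 and VMS1 did not pass, at 0.01 ± 0.19 and -0.58 ± 0.24. The calls of NPL4 and DOA1 ended under both other scalings and without wild-type library 2, those of DOA1 and UBX2 without wild-type library 1, and VMS1 was called lower under both other scalings and without deletion library 2.

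Ubiquitin genes split by their kind. UBI4, the stress-induced polyubiquitin gene, went from 415 and 480 CPM to 1361 and 1131 CPM, a rise of 1.48 ± 0.21 (adjusted p = 0.00162). RPS31, RPL40A and RPL40B, which encode ubiquitin fused to a ribosomal protein, fell, with changes of -1.60 ± 0.26, -1.40 ± 0.24 and -1.35 ± 0.22 from means of 7390, 3660 and 1838 CPM. These genes share ubiquitin coding sequence, and the RPL40 pair is nearly identical, so the division of reads among them is uncertain. UBA1, the ubiquitin-activating enzyme gene, rose by 0.82 ± 0.18, a call that ended under both other scalings and without wild-type library 1.

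**Figure D5:**
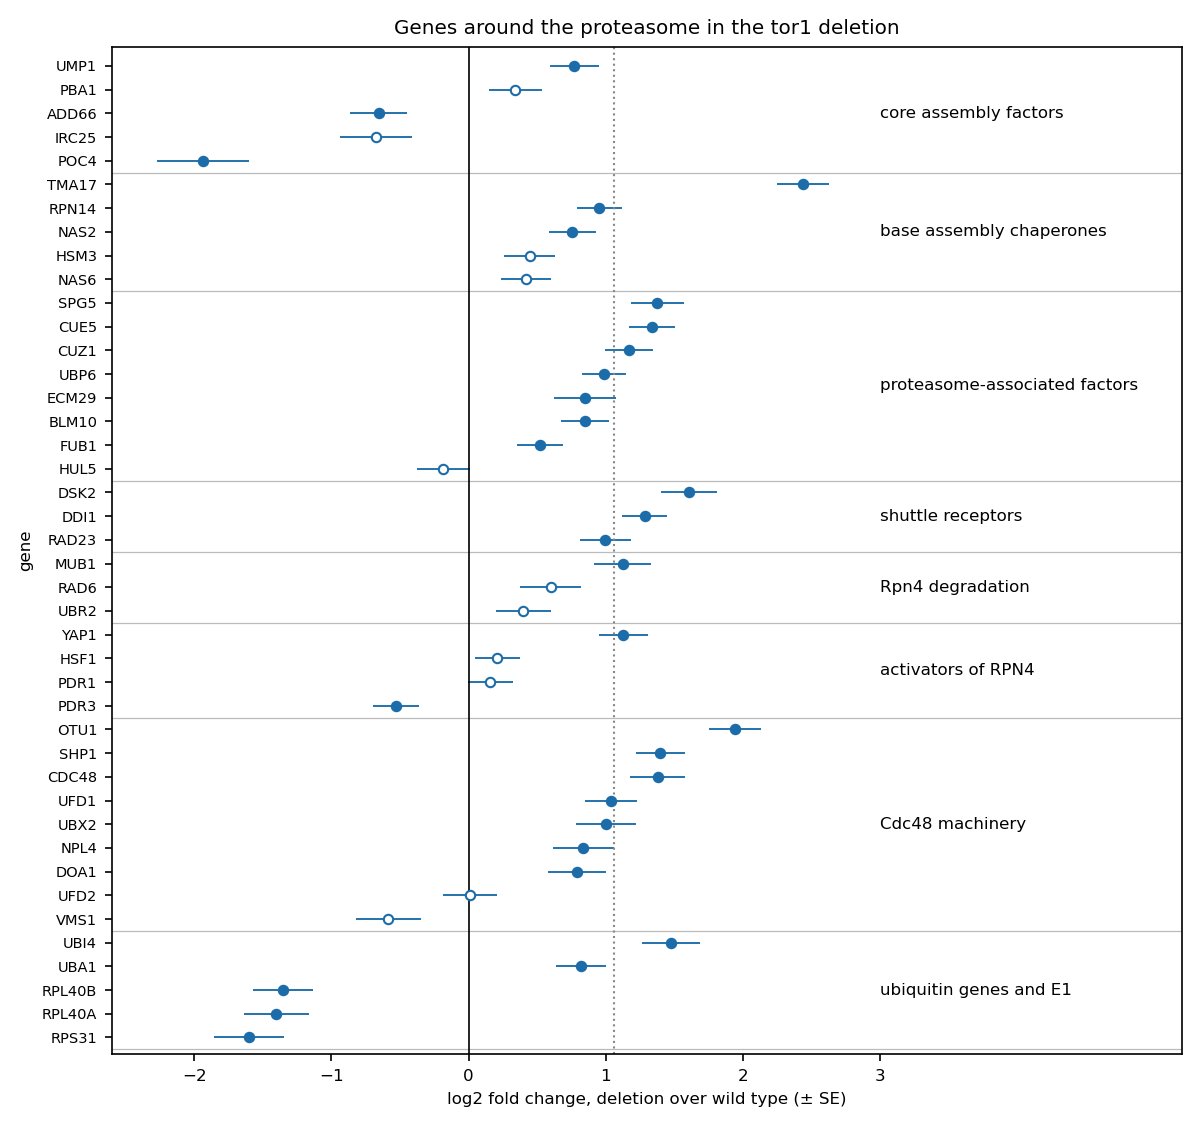
Log2 fold change of deletion over wild type (± SE, 2 libraries per strain) of 42 genes around the proteasome, by list, with filled symbols for genes that passed the test and a dotted line at the median of the 33 structural subunits. TMA17 lies furthest right, and POC4 and the ubiquitin fusion genes RPS31, RPL40A and RPL40B lie furthest left.

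The exact PACE also stood upstream of genes outside the complex. Of 44 such genes with counts, 23 rose and 2 fell, where 26.9% of all genes tested were higher and 24.9% lower, and their median log2 fold change was 0.55. They included UBI4, UBA1, CDC48, YAP1, ECM29 and CUZ1 of the genes above, all of which rose. A further 7 of the 44 were transcribed away from a proteasome gene across a shared upstream region, so that the element counted for both. Of the remaining 31, 16 rose, 1 fell and the median was 0.51, to be read against the same shares. Among the 13 genes transcribed away from a proteasome gene within 500 bases, with or without the exact element, 5 rose, 1 fell and the others did not pass, a share of rises not far from that of all genes. NOP14, a ribosome assembly gene 337 bases from RPN5, fell, with a log2 fold change of -1.92 (adjusted p = 0.000975), while RPN5 rose from 159 and 162 CPM to 335 and 339 CPM.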

How the data were processed

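Poly(A) RNA from 4 libraries (2 per strain) was sequenced on an Ion Torrent instrument, per the labels' protocols. The deposited main table holds the authors' unnormalised read counts per feature. The submitters' processing notes name FastQC, Subread, featureCounts and build sacCer3, with no versions. Annotation release and strand setting: not given in the sources used here. A second deposited table holds log10 values of 6519 genes. Each equals log10 of 1 plus the count divided by a constant of its library, and it served only for 1 alternative, after conversion to log2.

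Counts were tested in edgeR 4.0.16 (R 4.3.3) by its quasi-likelihood F test with TMM factors and group as the only term. filterByExpr kept 6197 of 7127 features, and p-values were Benjamini-Hochberg adjusted over these with a threshold of 0.05. SE is the log2 fold change over the square root of F, and CPM use TMM-scaled library sizes. The second fit took the summed counts of the 33 structural subunits as library size. The scripts were tested on simulated data. Chi-square per degree of freedom between replicates was 19.6 for the wild type and 72.7 for the deletion, above sampling noise. A count of 0 allows up to 3 counts, 0.208 to 0.372 CPM, for counting error only. Positions and promoters come from the R64 assembly, the sequence behind sacCer3, and 6047 identifiers matched its annotation by systematic name and 41 by symbol. Copies were sought with blastn 2.17.0 at 90% identity over 50% of the shorter gene.

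The members and gene lists were chosen with earlier results of these data known. All 34 members are named. Values per library are given for RPN4, RPN10, genes that did not pass, the extremes of core, base and lid, proteolytic subunits and members out of step, and neighbours within 500 bases are named where they changed by over 3 on the log2 scale. RPN12, RPN5 and NOP14 were singled out after their values were seen, and the search with 1 mismatch was added after the data were seen. Alternatives were RLE factors, library totals, upper quartile factors, DESeq2 1.42.0, no filter, a replicate block, the authors' table with limma 3.58.1 and each library left out, which leaves 1 library that is assumed to vary like the others.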

Additional observations from a re-analysis of the deposited data

How the results depend on the processing

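RLE factors, DESeq2, no filter on low counts and the authors' deposited table left the number of members called higher at 32 and lower at 0. The medians moved with the scaling: library totals gave 0.69, 0.59 and 0.77 for core, base and lid, upper quartile factors gave 0.63, 0.53 and 0.70, and in the authors' table that of the base was 0.95. Base rises numbered 5 under either of these scalings. Leaving out 1 library gave 18 to 33 members higher, 7 to 13 in the core, 3 to 9 in the base, base medians of 0.79 to 0.97, 16 to 30 pathway genes higher, 0 to 6 members above the summed subunits and 1 to 8 below. PRE6 turned to -0.31 under library totals and -0.37 under upper quartile scaling, and ranged from -0.25 to 0.27 when 1 library was left out, and RPN4 to -0.012 with upper quartile factors. The causes were not tested. Same-numbered libraries did not deviate together (correlation -0.07 over all genes). With 2 libraries per strain this cannot show whether the numbers pair the samples. With the replicate block 31 members were higher, SEM1 losing its call, and 1 was above the summed subunits. PACE was found at 27 members exactly, at 30 with its leading 2 bases free and at 33 with 1 mismatch.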
